A study of Mus musculus with 2 samples.

Results

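The cells described here are the Trdc-negative cells of cluster 4, a group of adipose-tissue lymphocytes that carry T cell receptor complex transcripts together with natural killer (NK) cell receptor transcripts. They were chosen as the cells with the number 4 in the authors' deposited clustering at a resolution of 0.5 and with 0 UMIs (unique molecular identifiers, each counting 1 captured RNA molecule) of Trdc, the constant gene of the T cell receptor delta chain. This gave 632 cells of the 10017 that have a cluster number, 225 from the chow library and 407 from the ketogenic diet library. Both libraries came from adult C57BL/6 wild-type mice and hold CD45+ cells resident in adipose tissue, where CD45 marks blood-derived cells and cells reached by an intravenous label were set apart from resident ones. One library was made from mice on normal chow and the other from mice on a ketogenic diet (KD), each fed for 1 week. There was 1 library per diet and the number of mice in it is not given in the sources used here, so diet and library cannot be told apart and no test between diets was possible. All intervals given are exact 95% intervals. For Styk1 and Pdcd1, each with 0 UMIs on chow, the level that 3 UMIs would give is stated as a floor. This floor is a convention and lies below the exact 95% upper limit. Other genes at 0 UMIs are given without a floor. The intervals and the floor cover counting error only.

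As background, T cells recognise antigen through a receptor of alpha and beta or of gamma and delta chains, which signals through the CD3 proteins. NK cells lack this receptor and are regulated by germline-encoded receptors, among them the Ly49 family, lectin-like receptors encoded by the Klra genes that bind MHC class I molecules. Most Ly49 receptors inhibit the cell and a few, such as the products of Klra4 and Klra8, activate it. Some memory, regulatory and innate-like T cells also carry Ly49 receptors.

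The 2 libraries held 4545 cells on chow and 5614 on KD, with 21570910 and 26041785 UMIs. The Trdc-negative cells had a median of 2477 UMIs on chow and 3426 on KD, and 635389 and 1521775 UMIs in sum. The libraries shared 41 cell barcodes, and none of them joined a Trdc-negative cell of one library to one of the other. Cluster 4 also held 44 Trdc-positive cells on chow and 108 on KD. Cluster 1, with 724 and 1062 cells, carried NK cell genes, and cluster 2, with 236 and 821 cells, carried T cell genes including Cd4 and Cd8b1; these are the sets the Trdc-negative cells are set beside. Just outside the rule, 11 chow and 21 KD cells of cluster 4 had 1 Trdc UMI, and 14 and 59 had 4 or more. After every cell was thinned to 1000 UMIs, Trdc was found in 70.7% and 69.1% of the Trdc-positive cells. Those cells were chosen for a Trdc UMI, so some fall was fixed in advance, and the rule itself was applied without thinning. A cell with Trdc RNA can fall on the Trdc-negative side, but how often this happened was not measured.

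The 5 genes given with the name of these cells were all present in them. Cd3d, a chain of the CD3 complex (chr9:44981786-44987339 in GRCm38), was at 1012 CPM (UMIs of the gene per 1000000 UMIs of the set; interval 935 to 1093) on chow and 994 (944 to 1045) on KD, beside 70.6 and 68.4 in cluster 1, 952 and 1016 in cluster 2, and 1127 and 932 in the Trdc-positive cells. Ly6c2, a surface marker of memory-type T cells and some monocytes (chr15:75108158-75111970), was at 3253 and 3465 CPM, beside 848 and 1173 in cluster 2, 2172 and 2046 in cluster 1, and 3076 and 3476 in the Trdc-positive cells. Ccl5, a chemokine stored by cytotoxic lymphocytes (chr11:83525778-83530518), was at 9278 and 10793 CPM, beside 4725 and 5229 in cluster 2, 10461 and 10212 in cluster 1, and 11848 and 9583 in the Trdc-positive cells. Klra1, which encodes Ly49A (chr6:130363917-130386874), was at 327 (284 to 375) and 531 (495 to 569) CPM, beside 4.83 and 29.4 in cluster 2, 71.7 and 114 in cluster 1, and 93.2 and 258 in the Trdc-positive cells. Klra7, which encodes Ly49G (chr6:130218605-130233322), was at 691 (628 to 759) and 872 (826 to 920) CPM, beside 37.0 and 20.1 in cluster 2, 445 and 549 in cluster 1, and 203 and 294 in the Trdc-positive cells. The clusters were made from these same genes, so the differences between clusters describe the grouping and were not tested.

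**Figure D1:**
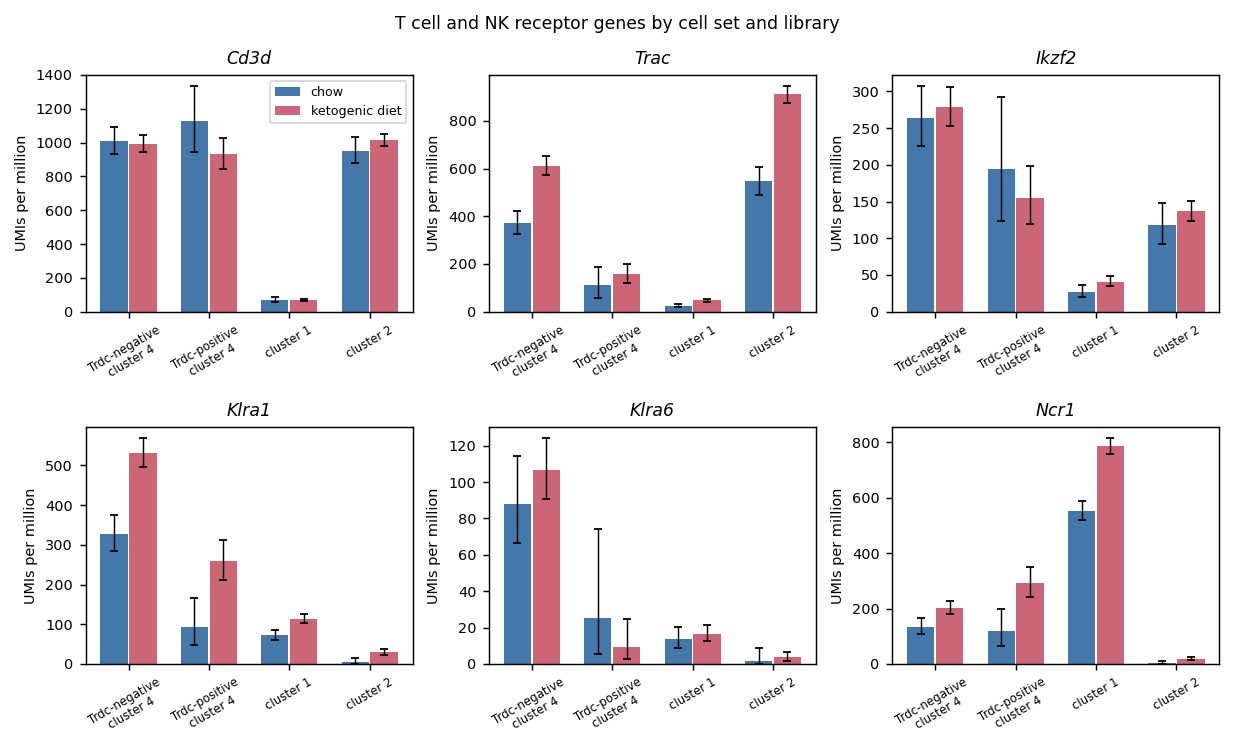
Level of 6 receptor and regulator genes (CPM, vertical axis from 0) in 4 sets of cells, with the chow library in blue and the ketogenic diet library in red; error bars are exact 95% Poisson intervals of the summed UMIs. In the Trdc-negative cells Cd3d stood at 1012 and 994, near cluster 2, while Klra1 stood at 327 and 531, above the other 3 sets in both libraries.

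The share of cells with receptor transcripts was compared after thinning each cell to 1000 UMIs. At least 1 UMI of Cd3d, Cd3e or Cd3g was found in 84.0% of the Trdc-negative cells on chow and 90.4% on KD, beside 9.81% and 11.9% in cluster 1. In cluster 6, a set of cells with the class II gene H2-Aa at 11364 and 12995 CPM that should lack CD3, the share was 2.93% and 7.61%, with a median of 7906 and 9922 UMIs per cell before thinning. Without thinning, 93.8% and 99.0% of the Trdc-negative cells had a CD3 UMI. Trac, the constant gene of the alpha chain (chr14:54220521-54224206), was found in 30.7% and 43.7% after thinning, beside 9.09% and 9.26% of the Trdc-positive cells and 0.651% and 2.82% of cluster 6. A transcript of any Ly49 gene was found in 61.3% and 68.6%, close to the 63.3% and 68.4% of cluster 1, and in 5.08% and 5.85% of cluster 2. Ncr1, which encodes the NK receptor NKp46, was found in 12.0% and 15.5%, beside 42.7% and 53.8% of cluster 1. The Trdc-negative cells thus stood near cluster 2 in CD3 transcripts, where the shares were 87.7% and 92.4%, and near cluster 1 in Ly49 transcripts.

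Coreceptors were rare. Cd8a or Cd8b1, which encode the CD8 chains, were found in 3.56% of the Trdc-negative cells on chow and 6.14% on KD after thinning, beside 14.8% and 18.9% of cluster 2. Cd4 was found in 0.889% and 0.491%, beside 12.3% and 10.7% of cluster 2 and 0.326% and 0.282% of cluster 6. Most of these cells therefore had CD3 RNA with no detected coreceptor RNA at this depth, which does not show that the coreceptors were absent. The defining factors of NKT and regulatory T cells were near 0, while other genes of their marker lists were not. Zbtb16, the factor of NKT cells, was at 1.57 and 1.31 CPM, but the NKT list of 10 genes summed to 452 and 551 CPM, beside 592 and 689 in cluster 2, and Klrb1c, which encodes NK1.1, gave 227 and 305 of it. Foxp3, the factor of regulatory T cells, was at 1.57 and 0.657 CPM, but the regulatory T cell list of 6 genes summed to 568 and 705 CPM, beside 542 and 667 in cluster 2. Most of that sum came from Ikzf2, at 264 and 279 CPM, and Tnfrsf18, which encodes the costimulatory receptor GITR, at 247 and 385.

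**Figure D2:**
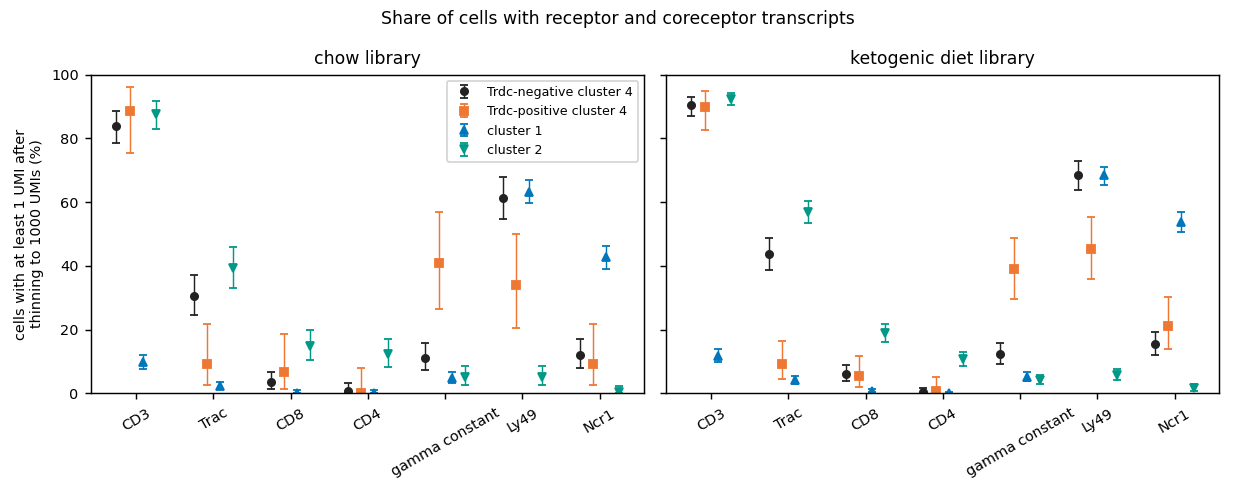
Share of cells with at least 1 UMI of a gene group after thinning to 1000 UMIs (percent, vertical axis), in 4 sets of cells on chow (left) and on the ketogenic diet (right), with exact 95% binomial intervals; CD3 is Cd3d, Cd3e or Cd3g, CD8 is Cd8a or Cd8b1, gamma constant is any Tcrg-C gene and Ly49 is any Klra gene. The Trdc-negative cells stand at 84.0% and 90.4% for CD3 and at 61.3% and 68.6% for Ly49.

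Gamma chain constant transcripts were still found in part of these cells. After thinning, 11.1% on chow and 12.3% on KD had a UMI of a Tcrg-C gene, beside 40.9% and 38.9% of the Trdc-positive cells and 5.08% and 4.26% of cluster 2. The unthinned shares were 22.2% and 30.5%. After thinning, Trac was found in 32.7% of the 50 chow cells with a gamma constant UMI and in 30.1% of the 175 without one. On KD it was found in 44.2% of 124 and in 43.4% of 283. Trac was thus found at a like share in cells with and without a gamma constant UMI, and how many of these cells bear a gamma-delta receptor was not tested.

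Ly49 genes were not carried evenly. The 11 Klra genes present in the files lie on the minus strand of chr6 between positions 129831154 and 131247362 in GRCm38. Klra6, which encodes Ly49F, was at 88.1 CPM on chow and 106 on KD in the Trdc-negative cells, 13.9 and 16.4 in cluster 1, and 1.61 and 3.59 in cluster 2. Klra9, which encodes Ly49I, was at 189 and 265 CPM, below the 519 and 642 of cluster 1. The activating receptor genes were low: Klra4, which encodes Ly49D, was at 12.6 and 11.8 CPM beside 339 and 465 in cluster 1. Klra8, which encodes Ly49H, was at 18.9 and 30.9 CPM beside 444 and 606 in cluster 1. For Klra4, 1 cell held 37.5% of the UMIs on chow and 44.4% on KD, and for Klra8 33.3% and 14.9%. Klra3 was at 40.9 and 36.1 CPM and Klra5 at 33.1 and 38.1, with 23.8% of the chow UMIs of Klra5 in 1 cell, while Klra17 had 0 UMIs in both libraries. Because Klra genes are similar in sequence, reads could be shared between them in ways the authors' counting does not show, and the level of a single Klra gene is uncertain to that extent.

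The promoters of 4 of them are shown because their levels differ between the sets: Klra6 and Klra7 are highest in the Trdc-negative cells, whereas Klra4 and Klra8 are low there and highest in cluster 1. For Klra7 the gap is small, since cluster 1 was at 445 and 549 CPM beside 691 and 872, and after thinning 25% and 29.7% of its cells had a Klra7 UMI, beside 39.6% and 44.2%. The sequences are the 250 bases before the RefSeq start, 5′ to 3′, from the RefSeq table of build GRCm38.p6. Capitals mark GGAAATTTAGTTCT, the longest run that all 4 share, and CTTTGA, the core letters bound by the T cell factor TCF-1.
Klra6, GRCm38.p6 chr6:130026955-130027204, minus strand: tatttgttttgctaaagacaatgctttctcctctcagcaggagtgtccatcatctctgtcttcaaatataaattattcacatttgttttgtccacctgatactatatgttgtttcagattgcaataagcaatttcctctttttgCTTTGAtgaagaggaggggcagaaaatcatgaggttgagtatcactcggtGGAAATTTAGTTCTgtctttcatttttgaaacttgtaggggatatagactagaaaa
Klra7, GRCm38.p6 chr6:130233323-130233572, minus strand: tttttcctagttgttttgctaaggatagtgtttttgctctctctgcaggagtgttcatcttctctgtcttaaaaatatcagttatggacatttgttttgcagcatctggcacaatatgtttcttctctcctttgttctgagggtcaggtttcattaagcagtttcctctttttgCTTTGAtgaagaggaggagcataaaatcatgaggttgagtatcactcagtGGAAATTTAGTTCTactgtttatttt
Klra4, GRCm38.p6 chr6:130067272-130067521, minus strand: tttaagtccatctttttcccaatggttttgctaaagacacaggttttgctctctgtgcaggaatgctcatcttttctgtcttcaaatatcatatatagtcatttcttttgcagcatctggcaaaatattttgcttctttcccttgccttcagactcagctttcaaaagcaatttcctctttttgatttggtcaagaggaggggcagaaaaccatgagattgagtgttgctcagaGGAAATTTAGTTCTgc
Klra8, GRCm38.p6 chr6:130129899-130130148, minus strand: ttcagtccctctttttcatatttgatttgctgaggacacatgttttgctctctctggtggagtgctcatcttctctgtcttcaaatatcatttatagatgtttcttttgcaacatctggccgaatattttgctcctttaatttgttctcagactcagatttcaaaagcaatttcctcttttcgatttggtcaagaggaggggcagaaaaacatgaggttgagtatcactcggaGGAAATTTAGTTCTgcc
On either strand, CTTTGA was held by Klra6 and Klra7 and by neither Klra4 nor Klra8 in this window. It was held by 13.8% of the 32851 distinct promoter windows in the table and by 3 of 13 Klra windows, all 3 of Klra6 or Klra7, so not by those of Klra1 or Klra9. The shared run of 14 bases was in 5 windows, all of these 4 genes. TGTGGT, the core of RUNX factors, was in 14.05% of all windows, in none of these 4, and in 1 of the 13 Klra windows, that of Klra1. Over a global alignment, Klra4 and Klra8 were 84.6% identical. Klra7 was closer to Klra8 (75.4%) and Klra4 (74.4%) than to Klra6 (68.1%), and Klra6 was 61.9% and 60.5% identical to Klra8 and Klra4. The windows are not in register. The shared run lies 56 to 43 bases before the start in Klra6 and 26 to 13 in Klra7. In Klra4 it lies 16 to 3 bases before the start, and in Klra8 17 to 4. The identities therefore depend on the annotated starts, and no pairing of genes is drawn from them. These letter matches are descriptions and were not linked to binding.

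**Figure D3:**
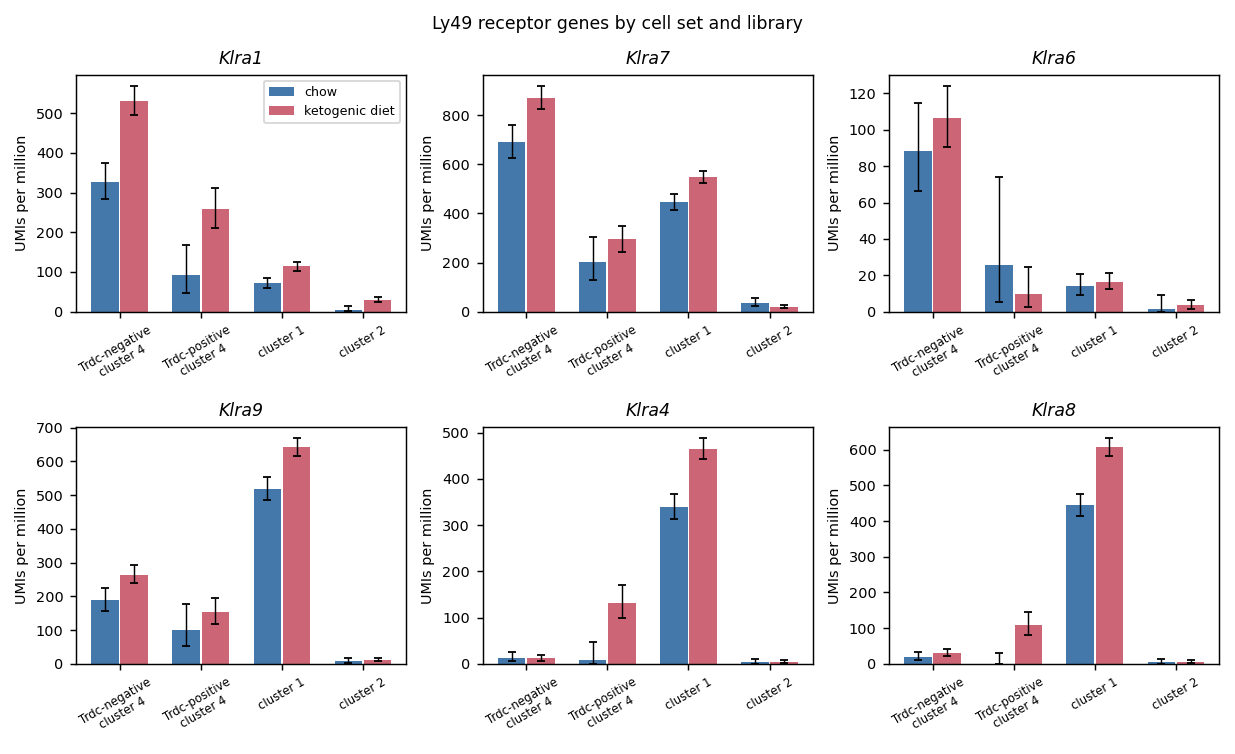
Level of 6 Ly49 genes (CPM, vertical axis from 0) in 4 sets of cells, chow in blue and ketogenic diet in red, with exact 95% Poisson intervals of the summed UMIs. Klra1, Klra7 and Klra6 are highest in the Trdc-negative cells in both libraries, whereas Klra9, Klra4 and Klra8 are highest in cluster 1, at 339 and 465 for Klra4.

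Within the Trdc-negative cells, the number of Ly49 genes per cell varied widely. Without thinning, no Klra UMI was found in 20.4% of cells on chow and 12.8% on KD, 1 gene was found in 27.6% and 20.6%, and 4 or more in 7.56% and 10.3%. Klra7 was found in 68.8% of the 93 chow cells with a Klra1 UMI and in 66 of the 132 without. On KD these shares were 74.9% of 247 and 48.8% of 160. After thinning they were 51.5% against 31.2% on chow and 54.0% against 29.3% on KD, so Klra1 and Klra7 went together in both libraries. The Ly49 share was 88.4% in chow cells with a Trac UMI and 67.7% in those without, and 89.6% and 77.2% on KD. Only 14 chow and 4 KD cells had no CD3 UMI, and 3 and 0 of them had a Ly49 UMI. An Ncr1 UMI was found in 7 and 3 of them, beside 22.3% and 35.7% of the cells with a CD3 UMI. Whether these few cells are T cells was not tested. Cells with a CD8 UMI, 14 on chow and 57 on KD, had a Ly49 UMI in 7 and 42 cells, beside 81.5% and 89.4% of those without a CD8 UMI. Their Ccl5 level was 14309 and 13220 CPM, beside 8907 and 10336.

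**Figure D4:**
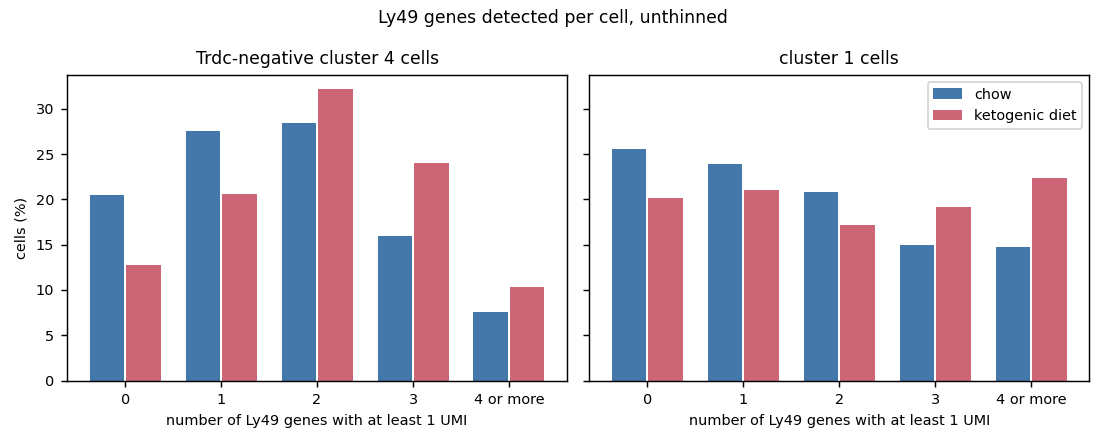
Share of cells (percent, vertical axis from 0) by the number of Ly49 genes with at least 1 UMI, unthinned, in the Trdc-negative cells (left) and in cluster 1 (right), chow in blue and ketogenic diet in red. On chow 7.56% of the Trdc-negative cells had 4 or more, beside 14.8% of cluster 1.

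Beside the Trdc-positive cells of the same cluster, the Trdc-negative cells had more Trac and more Ly49 RNA. Of 2941 genes with at least 100 UMIs over both sets, 7 were at least 2-fold higher in both libraries (0.238%) and 4 were at least 2-fold lower (0.136%). In 1 library alone, 5.47% of genes were higher and 2.96% lower on chow, where there were 44 Trdc-positive cells, and 0.476% and 0.408% on KD. Of 8 Ly49 genes 3 were higher in both libraries and none lower, beside 100 (1.12%) higher and 143 (1.59%) lower of 8967 genes with at least 10 UMIs. The 7 genes were Trac, Klra6, Klra7, Fip1l1, Gzmb, Klra1 and Klrg1. Trac was 3.36-fold higher on chow (interval 1.93 to 6.40) and 3.87-fold on KD (3.01 to 5.04), at 370 against 110 and 610 against 158 CPM. Klra7 was 3.397-fold (2.25 to 5.36) and 2.97-fold (2.46 to 3.60) higher, and Klra1 3.51-fold (1.92 to 7.14) and 2.06-fold (1.68 to 2.54). Gzmb, which encodes the cytotoxic protease granzyme B (chr14:56258838-56262260), was 3.71-fold (1.395 to 13.96) and 2.23-fold (1.73 to 2.92) higher. Klra6 rested on 3 and 4 UMIs in the Trdc-positive cells, and the chow interval of Klrg1 (0.528 to 139) holds equality. So does that of Fip1l1 (0.707 to 24.1), from 2 Trdc-positive UMIs, and, among the lower genes named next, those of Gm12840 (0.101 to 1.27) and Gch1 (0.219 to 1.33). The 4 lower genes were Tcrg-C1 and Tcrg-C4, which are gamma chain constant genes, Gm12840 and Gch1, an enzyme of tetrahydrobiopterin synthesis. Tcrg-C1 was at 37.8 and 36.8 CPM, against 237 and 165. The rule on Trdc splits these sets, so the gamma and alpha chain genes describe that split. Klrc1, which encodes the inhibitory receptor NKG2A, was at 161 and 209 CPM against 356 and 351, below 2-fold on KD. With only cells of at least 3000 UMIs, 56 of them Trdc-negative cells on chow, the smaller of the 2 log2 ratios was 0.56 for Trac, 0.87 for Klra1 and 0.77 for Gzmb, each below 2-fold.

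Beside cluster 1, the Trdc-negative cells had more RNA of T cell receptor complex genes and less of some NK cell and cytotoxic granule genes. Of 6043 genes, 38 were at least 2-fold higher in both libraries (0.629%) and 97 lower (1.61%). Among the CD3 complex and receptor signalling genes, 8 of 20 were at least 2-fold higher in both libraries and none lower, beside 209 higher (1.97%) and 285 lower (2.69%) of 10599 genes with at least 10 UMIs. Cd3e was 19.8-fold higher on chow (13.7 to 29.5) and 16.9-fold on KD (13.8 to 21.01). Cd40lg, which encodes the helper molecule CD40 ligand, was at 96.0 and 58.5 CPM against 3.89 and 1.11. Ikzf2, which encodes Helios, a transcription factor known from regulatory and innate-like T cells, was at 264 and 279 CPM against 27.3 and 40.9. Of 18 NK cell genes, 5 were at least 2-fold lower in both libraries and none higher, and of 16 cytotoxic granule genes 4 were lower and none higher. Gzma, which encodes granzyme A, was at 109 (84.5 to 137) and 181 (161 to 204) CPM against 2768 and 2499, with 23.2% of the chow UMIs in 1 cell. Prf1, which encodes perforin, was at 7.87 and 11.2 CPM against 41.7 and 51.7. Styk1 had 0 UMIs on chow, with the floor of 3 UMIs at 4.72 CPM and an exact upper limit of 5.81 CPM, and was at 10.5 CPM on KD, against 60.6 and 86.0. Gzma and Styk1 were among the 10 lowest, and the other 8 were Klra4, Klra8, Khdc1a, Khdc1c, Cma1, Serpinb9b, Car2 and Gm15518.

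Beside cluster 2, the NK receptor genes were high as a group. Of 5042 genes, 65 were at least 2-fold higher in both libraries (1.29%) and 70 lower (1.39%). Among the NK cell genes 15 of 18, and among the Ly49 genes 8 of 8 with enough UMIs, were at least 2-fold higher in both libraries, beside 224 (2.20%) of 10180 genes. Klrb1c, which encodes NK1.1, was at 227 and 305 CPM against 17.7 and 20.8. Fcer1g, the signalling adaptor of Fc and NK receptors, was at 1665 and 1469 CPM against 199 and 124. Xcl1, a chemokine that draws cross-presenting dendritic cells, was at 886 and 958 CPM against 57.9 and 222. Spry2, a brake on receptor tyrosine kinase signalling, was at 494 and 379 CPM against 24.1 and 40.5. All 3 coreceptor genes were at least 2-fold lower in both libraries (267 of 10180 genes, 2.62%), with Cd8b1 at 42.5 and 55.9 CPM against 225 and 269 and 29.6% of its chow UMIs in 1 cell. Of the CD3 and receptor signalling genes 5 of 20 were lower and 1 higher. Themis, a regulator of receptor signalling in developing T cells, was at 9.44 and 2.63 CPM against 78.8 and 55.6, while Cd3d was at about the level of cluster 2. Cd5, a receptor that damps T cell receptor signalling, was at 17.3 and 28.3 CPM against 90.1 and 121. Pdcd1, which encodes PD-1, had 0 UMIs on chow, with the same floor and upper limit, and was at 4.60 CPM on KD, against 25.7 and 45.2.

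Under the diets, the Trdc-negative cells made up 5.05% of clustered cells on chow (4.42 to 5.73) and 7.32% on KD (6.65 to 8.04). KD over chow gave a ratio of 1.45 (1.23 to 1.71). Counted over clusters 1, 2, 4, 7 and 11 alone, 15.5% and 14.1% of cells were Trdc-negative cells of cluster 4, and the ratio became 0.904 (0.767 to 1.07). That interval holds equality, so a higher share on KD was not seen with this denominator. It includes cluster 2, which had 236 cells on chow and 821 on KD. Within cluster 4, the Trdc-negative share was 83.6% (78.7 to 87.9) on chow and 79.0% (75.3 to 82.5) on KD. Among cells with at least 3000 UMIs they were 2.19% on chow (56 of 2556) and 8.09% on KD (300 of 3710), a 3.69-fold difference with a lower bound of 2.77. The Trdc-negative cells were deeper on KD, with a median of 3426 UMIs against 2477, while the whole libraries had medians of 3469 on chow and 3461.5 on KD. The smallest cell had 1699 UMIs on chow and 2048 on KD, so the libraries differ in their lower limit. The part of depth and of this limit in the share ratios was not tested.

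The expression of the Trdc-negative cells differed between the libraries in few genes. Of 2448 genes with at least 100 UMIs, 19 were at least 2-fold higher on KD (0.776%) and 32 at least 2-fold lower (1.31%), with a median log2 ratio of 0.06 over all of them. Gzmb was at 126 CPM (99.8 to 157) on chow, in 44 cells, and at 357 (327 to 388) on KD, in 128 cells, a 2.83-fold difference (2.24 to 3.63). It was also higher on KD in the Trdc-positive cells, 33.9 against 160 CPM from 4 and 67 UMIs, in cluster 2, 20.9 against 69.6, and in cluster 1, 382 against 524. Prdx6, a peroxide-reducing enzyme, was at 151 and 342 CPM, a 2.26-fold difference (1.82 to 2.84), and was 195 and 363 in cluster 2. Ppm1j, a protein phosphatase, was at 12.6 and 65.7 CPM, a 5.22-fold difference (2.55 to 12.4) from 8 UMIs on chow. The other 7 of the 10 highest were Gm11713, Gpr171, Hspa1a, Pim3, Tespa1, Ptp4a3 and Mcrs1, with log2 ratios from 1.55 to 1.13. Hspa1a, a heat shock gene, had 31.2% of its chow UMIs and 16.7% of its KD UMIs in 1 cell.

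The 10 genes furthest below 0 were mostly genes of macrophages and antigen-presenting cells. Retnla, a macrophage secreted factor (chr16:48842551-48844461), was at 1303 CPM on chow and 43.4 on KD, a log2 ratio of −4.90, and 1 chow cell held 44.7% of its chow UMIs. Lyz2, which encodes lysozyme, was at 1029 and 102 CPM, with 21.6% of the chow UMIs in 1 cell. Cd74, the class II invariant chain, was at 3359 and 538 CPM, with 29.1% in 1 cell, and H2-Eb1 at 1043 and 145 CPM, with 26.2%. The other 6 were Ccl6, Mt1, Ccl9, Gm26870, Cxcl2 and Ifitm3, and 1 cell held 48.3% of the chow UMIs of Mt1 and 20.2% of those of Ccl6. The summed macrophage and monocyte list was at 2545 CPM on chow and 174 on KD in the Trdc-negative cells, with C1qc, Adgre1 and Mrc1 at 0 on KD. The same list was at 1606 and 222 in cluster 1 and at 1207 and 197 in cluster 2, so it was higher on chow in each of these sets. All 6 of its genes with enough UMIs, and 4 of 4 dendritic cell genes, were at least 2-fold lower on KD, beside 524 (6.13%) of 8545 genes. The minimum of 10 UMIs was on the sum of both libraries, so a gene could pass through chow alone. These counts were thus partly set by the minimum and are a description. Without the 3 chow cells that held markers of other cell types, 20 genes were lower and 18 higher, Retnla was at −4.12 and Cd74 at −1.12. The part of RNA from other cells in these differences was not tested.

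**Figure D5:**
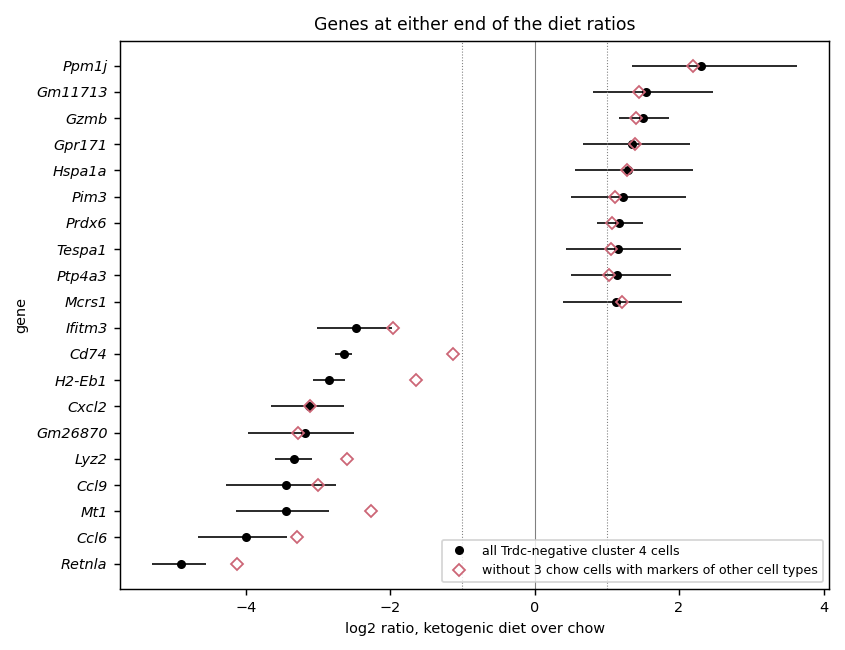
Log2 ratio of ketogenic diet over chow (horizontal axis) for the 10 highest and 10 lowest genes in the Trdc-negative cells, with exact 95% intervals of the ratio for counting error; open diamonds leave out 3 chow cells with markers of other cell types, and dotted lines mark 2-fold. Without those cells Gzmb stands at 1.41 and Cd74 moves from −2.64 to −1.12.

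Of the 5 genes given with the name of these cells, 4 had KD over chow ratios above 0 and 1, Cd3d, below 0, and none was past 2-fold. All 3 alpha-beta constant genes had ratios above 0, with a median log2 of 0.47, beside a median of 0.03 over the 8545 genes with at least 10 UMIs. Trac was 1.65-fold higher (1.43 to 1.91), and its log2 ratio was 0.72 here, 0.47 in the Trdc-positive cells, 0.88 in cluster 1 and 0.73 in cluster 2. Of 8 Ly49 genes 6 had ratios above 0 and none was past 2-fold, beside 482 higher (5.64%) of the 8545 genes. Klra1 was 1.62-fold higher (1.39 to 1.90), and its log2 ratio was 0.70 here and 0.67 in cluster 1. Of 18 NK cell genes 2 were past 2-fold, both higher: Klri2 and Cd160. Cd160, an NK and CD8 T cell receptor of the immunoglobulin superfamily, was at 99.2 and 212 CPM, with a log2 ratio of 1.08 here, 0.95 in cluster 1 and 0.16 in cluster 2.

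The metabolic lists are read against the 8545 genes with at least 10 UMIs, of which 5.64% were at least 2-fold higher on KD and 6.13% lower. Of 15 glycolysis genes 12 had ratios above 0, with a median log2 of 0.38, and 1 was at least 2-fold higher on KD and 2 lower. Aldoa, a glycolytic enzyme, was at 216 and 359 CPM, and its log2 ratio was 0.73 here, 0.69 in cluster 1 and 0.86 in cluster 2. Of 5 ketone body genes none was past 2-fold, and Oxct1, the enzyme that starts ketone use, was at 26.8 (15.6 to 42.8) and 34.2 (25.5 to 44.8) CPM, with overlapping intervals. Of 14 fatty acid oxidation genes 2 were at least 2-fold higher, Hadh and Cpt2, and 1 lower, Cpt1a, the gate of fatty acids into mitochondria, at 39.3 and 11.8 CPM. The log2 ratio of Cpt1a was −1.72 here and −1.82 in cluster 1, and its counts were low, at 25 and 18 UMIs. Cd44, an adhesion receptor raised on memory T cells, was at 255 and 116 CPM, with log2 ratios of −1.13 here, −1.02 in cluster 1 and −0.83 in cluster 2. The 16 measured interferon-stimulated genes had a median of 0.05, with 1 past 2-fold. Of 11 tissue retention genes with enough UMIs, 4 had ratios above 0 and 7 below, 2 were at least 2-fold lower on KD and none higher, and the median log2 was −0.20. Cd69, a retention receptor, was at 131 and 147 CPM, and Itgae, an integrin chain, had 0 UMIs on chow and was at 3.94 CPM on KD. Mki67, a marker of cycling cells, was at 1.57 and 1.31 CPM.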

How the data were processed

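Both 10x Genomics libraries of CD45+ adipose-tissue cells were used, 1 per diet. The deposited values are UMI counts for every gene in every cell, whole numbers that were not normalised. Cell Ranger, Seurat and the build mm10 are named in the submitters' processing notes, with no version or role. The authors' deposited table gives each cell's cluster number; its cell filter is not given in the sources used here, and the 87 chow and 55 KD cells outside it had over 5% mitochondrial UMIs. Doublets were not called here.

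UMIs were summed per set and library and divided by the set's total (CPM, per 1000000 UMIs), in Python 3.11.15 with scipy 1.17.1. Log2 ratios had 0.5 added to each count; genes needed 100 UMIs, or 10 in lists, and 2-fold was counted. Intervals were exact Poisson, Clopper-Pearson or conditional. Shares after thinning to 1000 UMIs are expected numbers of cells, rounded to whole cells for the receptor shares. Named genes were the markers, list genes, and the 10 highest and 10 lowest ratios of each comparison. On simulated counts for the diet ratio, 100% of 145 changed and 0.0484% of 2066 unchanged genes were counted. These shares describe the simulated counts only. How often genes of the real libraries were counted in error was not tested. Gene positions came from GENCODE M21 by Ensembl ID (357 of 357 matched). Members and lists were chosen with earlier results of these data known. Left-out cells, other minima, scalings and free RNA subtraction were tried as alternatives; the filter on 14 markers of other cell types was chosen after seeing the data.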

Additional observations from a re-analysis of the deposited data

Results flagged for a closer look

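Ccl5, a chemokine of cytotoxic lymphocytes, stood out because the diet ratio went opposite ways on the 2 sides of the Trdc rule. In the Trdc-negative cells it was at 9278 CPM on chow and 10793 on KD, a log2 ratio of 0.22. In the Trdc-positive cells it was at 11848 and 9583 CPM, a log2 ratio of −0.31. Both counting intervals leave out equality, but each diet has 1 library, and the difference between the ratios was not tested.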

How the results depend on the processing

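No paired analysis was possible because each diet has 1 library. Each pairing of a value with an alternative was counted once. Among the values of main interest, 66 pairings kept the size, 61 moved it and 2 turned it, both for the share ratio. Among single genes and list medians, 561 kept it, 128 moved it and 4 turned it. The cause of each change was not tested, unless a smaller or larger gene set or cell set gives it.

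The share ratio of KD over chow turned to 0.945 (0.801 to 1.12) within cluster 4 and to 0.904 (0.767 to 1.07) over clusters 1, 2, 4, 7 and 11. Both of these intervals hold equality. The ratio was 3.69 among cells with at least 3000 UMIs.

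Raising the minimum to 200 UMIs left 0 genes lower against the Trdc-positive cells, 19 higher and 58 lower against cluster 1, 39 lower against cluster 2, and 4 higher and 14 lower under KD. A minimum of 50 UMIs gave 9 lower against the Trdc-positive cells, 68 higher against cluster 1, 99 higher and 106 lower against cluster 2, and 88 higher and 70 lower under KD. In the gene lists a minimum of 50 UMIs left 6 higher and 11 lower entries. With 20 CPM added, 4 were higher and 2 lower against the Trdc-positive cells, 17 and 33 against cluster 1, 39 and 37 against cluster 2, and 5 higher under KD.

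Among cells with at least 3000 UMIs, 1 gene was lower against the Trdc-positive cells, and Gm12840 turned to 0.33. Under KD, 12 genes were higher with cells at 0 gamma constant UMIs, 20 were lower with cells that had a CD3 UMI, and 20 were lower without the 3 chow cells found by the 14 markers.

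Leaving out cells with at least 3 UMIs of another class's marker list removed 194 of 225 chow cells and 181 of 407 KD cells, so 31 chow cells remained. Then 4 genes were higher and 1 lower against the Trdc-positive cells, 18 and 43 against cluster 1, 37 lower against cluster 2, and 41 higher and 16 lower under KD. Fip1l1 turned to −0.17 against the Trdc-positive cells, Pdcd1 to 0.25 against cluster 2 and Tespa1 to −0.054 under KD. On chow CD4 was then in 3.23% of cells, CD8 in 0, Cd8b1 in 0, Trac in 38.7% and a gamma constant gene in 19.4%.

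Without thinning, the shares on chow and KD were 93.8% and 99.0% for CD3, 96.4% and 99.5% for the alpha-beta constant genes, 57.3% and 80.6% for Trac, 79.6% and 87.2% for Ly49, 24.0% and 36.1% for Ncr1, and 22.2% and 30.5% for the gamma constant genes. On KD they were 2.46% for CD4, 14.005% for CD8 and 9.09% for Cd8b1. With at least 2 UMIs they were 89.8% and 98.3% for CD3, 92.0% and 98.3% for the alpha-beta genes, 61.9% for Trac, 78.6% for Ly49 and 19.4% for Ncr1 on KD, and 6.67% for the gamma constant genes on chow. The unthinned alpha-beta shares were also 77.8% and 89.7% in cluster 1 and 84.1% and 94.4% in the Trdc-positive cells. With at least 2 UMIs those were 49.3% and 72.9%, and 70.5% and 83.3%. The alpha-beta share alone therefore does not show that a cell bears an alpha-beta receptor.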

Other observations

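Variable segments of the receptor chains were counted in the Trdc-negative cells as a further look at their receptors. Of the 128 alpha variable genes in the files, 10 had UMIs on chow and 24 on KD, with 10 and 52 UMIs in sum, or 15.7 and 34.2 CPM. The Trdc-positive cells were no lower, at 33.9 and 43.0 CPM from 4 and 18 UMIs, and cluster 2 was at 30.6 and 32.3. Delta variable genes were at 3.15 and 6.57 CPM, beside 25.4 and 38.3 in the Trdc-positive cells and 51.7 and 37.6 in cluster 1. No single segment was followed, since a UMI was found in few cells.

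Of the 87 chow and 55 KD cells without a cluster number, 10 and 15 had CD3 and Ly49 UMIs and 0 Trdc UMIs. This does not say what kind of cell they are, since without thinning 16.6% and 25.1% of cluster 1 cells had a CD3 UMI, and 74.4% and 79.8% a Ly49 UMI.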
